A study of Mus musculus with 12 samples.

Results

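The inflammasome and the IL-1 family were followed through 10 genes in differentiated mouse neurospheres: the sensors Nlrp3 and Aim2, the adaptor Pycard, the caspases Casp1 and Casp4, the pore protein Gsdmd, the cytokines Il1a, Il1b and Il18, and the receptor antagonist Il1rn. The members were taken as all array probes without control type whose RefSeq accession belongs to 1 of these 10 genes. They were 12 probes of 55681, since Nlrp3 and Casp4 each had 2. Of the 12 probes 6, those of Aim2, Pycard, Casp1, Casp4 (both) and Il18, passed the filter on dim probes and stood among 29353 tested probes. The other 6 probes (both of Nlrp3, and those of Gsdmd, Il1a, Il1b and Il1rn) were too dim to be tested and are given by their detection.

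Neurospheres, free-floating clusters of neural progenitors, were grown from the telencephalon of C57BL/6 mouse embryos at day 13 and were then attached and differentiated. WT neurospheres came from wild-type embryos and received no drug. APP_WT neurospheres came from APPswe/PS1dE9 embryos, a model of Alzheimer's disease, and were untreated. In this line neurons are the intended site of expression of both transgenes, a mouse-human hybrid APP with a disease mutation and a mutated human presenilin. BK_APP neurospheres were of the same transgenic genotype and received 1 µM bradykinin (BK), the agonist of the B2 kinin receptor, on days 0, 3 and 6 of differentiation. HOE_APP neurospheres, also transgenic, received 1 µM HOE-140, a B2 receptor antagonist, on the same days. RNA of all groups was taken on day 7. Every 2-color array held both conditions of 1 comparison, and each comparison had 4 arrays, with dyes swapped on 2 of them: transgenic against WT, and either treatment against APP_WT. The study describes 4 independent biological replicates of each model.

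The inflammasome is a protein platform of innate immune cells. A sensor such as NLRP3 or AIM2 recruits the adaptor ASC (gene Pycard), which brings caspase-1 to the platform, where it becomes active and cleaves pro-IL-1 beta, pro-IL-18 and gasdermin D. Mouse Casp4 encodes caspase-11, which senses bacterial lipopolysaccharide in the cytosol and cleaves gasdermin D, whose released part forms pores in the cell membrane. IL-1 alpha and IL-1 beta signal through the IL-1 receptor and MyD88, and the IL1RN protein blocks that receptor. In the brain these components are known mainly from microglia.

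Across the 12 arrays between 48.1% and 56.0% of spot signals were well above background. Values are log2 ratios after background correction and loess normalization within each array. After ratios were turned to one direction, arrays of opposite dye orientation correlated with r between 0.24 and 0.46 over tested probes in APP_WT versus WT, but between −0.32 and −0.11 in the 2 treatment comparisons. On the HOE_APP arrays the channel descriptions give HOE-140 for both dyes, so that the direction used here is likely only; it follows the first channel, the titles and the dye order that the BK_APP arrays have. Markers of neural cells were expressed: all 5 of progenitors, 7 of neurons, 6 of astrocytes and 6 of the oligodendrocyte lineage passed the filter, as did 11 of 14 microglia markers. Of the peripheral myeloid markers, 7 had a probe and none was tested. Of these 7, 5 were not well above background in any of the 24 channels, Ccr2 was so in 3 and S100a8 in 2.

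Detection differed between members more than between treatments. Pycard and Il18 were well above background in every channel of every condition (4 WT, 12 APP_WT, 4 BK_APP and 4 HOE_APP channels, where the 12 stem from all 3 comparisons and are not 12 replicates). Casp1 was detected in 12 of 12 APP_WT, 4 of 4 BK_APP and 4 of 4 HOE_APP channels, but in only 2 of 4 WT channels. Both Casp4 probes were likewise detected in every channel of the transgenic neurospheres and in 1 of 4 WT channels. Il1a, Il1b and Il1rn, encoding both IL-1 cytokines and their antagonist, were not well above background in any of the 24 channels. These 3 are therefore not shown to be absent, only not measurable here.

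**Figure D1:**
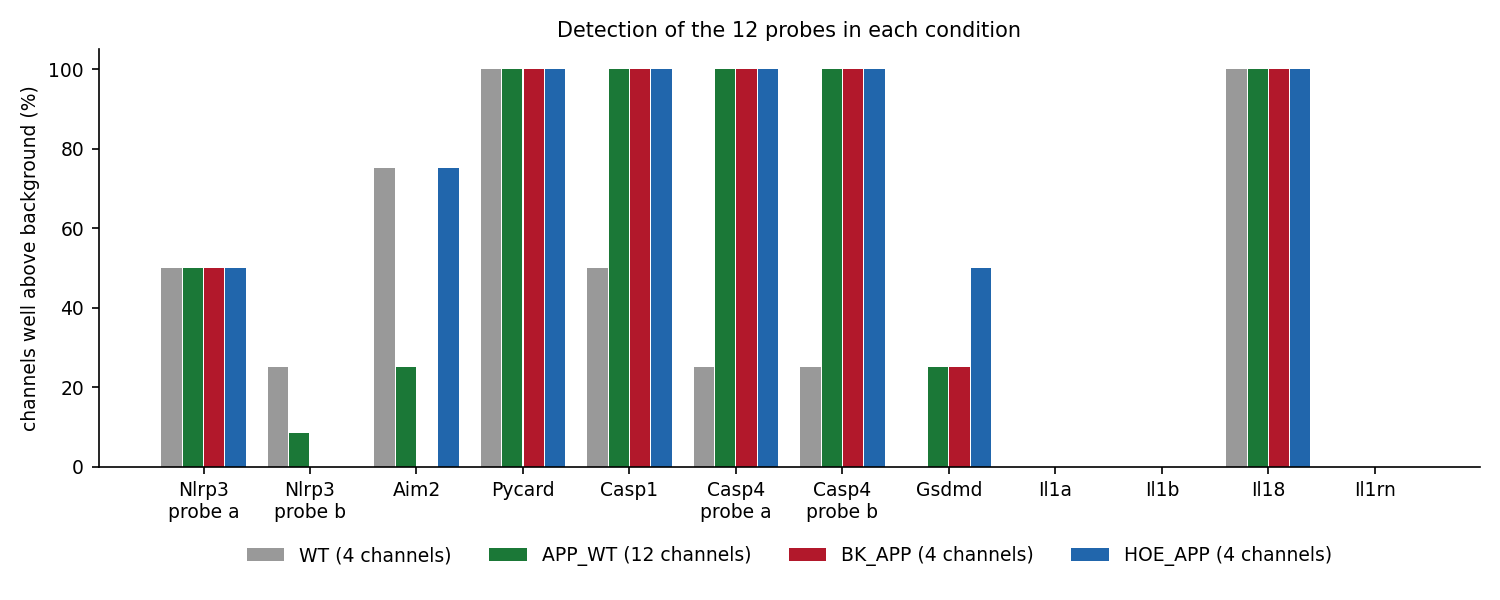
The share (%) of channels in which each of the 12 probes was well above background is shown as bars for WT, APP_WT, BK_APP and HOE_APP neurospheres. Casp1 and both Casp4 probes reached 12 of 12 APP_WT channels against 2, 1 and 1 of 4 WT channels, and Il1a, Il1b and Il1rn have no bars because no channel passed.

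The comparison of APP_WT with WT asks which genes differ between transgenic and wild-type neurospheres without drug. Casp1, Casp4 by probe a and Casp4 by probe b were higher in APP_WT, by 1.82-fold, 1.97-fold and 1.75-fold. These sizes depend on the background correction, since the WT channel was well above background on only 2, 1 and 1 of the 4 arrays. They were 3 of the 6 tested member probes, whereas 11.6% of all tested probes were called higher and 18.5% were called in either direction (limma, adjusted p below 0.05). These 3 probes passed the filter on dim probes only through transgenic channels, so that this count is not independent of the direction. Without the filter 4 of 12 member probes were called, against 4260 of all 55674 probes. No member probe was called lower. In bulk RNA, a larger share of cells that express these genes and more RNA per cell cannot be told apart.

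Casp1, the caspase that matures IL-1 beta and IL-18, had log2 ratios of 0.89, 0.88, 0.63 and 1.05 on arrays 1 to 4. All 4 arrays were far above 0 in both dye orientations. The mean was 0.86 ± 0.17 (SD, n = 4) with an SE of 0.08 and an adjusted p of 5.52e-05. Its normalized log2 intensity was 7.53, 7.40, 7.58 and 7.89 in the APP_WT channels and 6.64, 6.52, 6.95 and 6.84 in the WT channels. The WT values of arrays 2 and 4 were not well above background.

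Casp4 probe a read log2 ratios of 1.32, 0.99, 0.61 and 0.98, with a mean of 0.97 ± 0.29 (SD, n = 4) and an adjusted p of 2.1e-05. Probe b of the same gene gave 1.00, 0.78, 0.74 and 0.71, with a mean of 0.81 ± 0.13 (SD, n = 4) and an adjusted p of 0.000117. Both probes carry the same RefSeq accession, and they agreed in direction on all 4 arrays, with array 1 highest for each. By intensity, probe a lay at 6.93 to 8.01 in APP_WT and at 5.94 to 6.69 in WT. Probe b was bright in both channels of array 4, at 9.0 in APP_WT and 8.28 in WT. The processed signals of the scanner software, which carry no added offset, gave larger mean log2 ratios of 1.78 for Casp1, 2.09 for Casp4 probe a and 1.72 for probe b, all called.

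**Figure D2:**
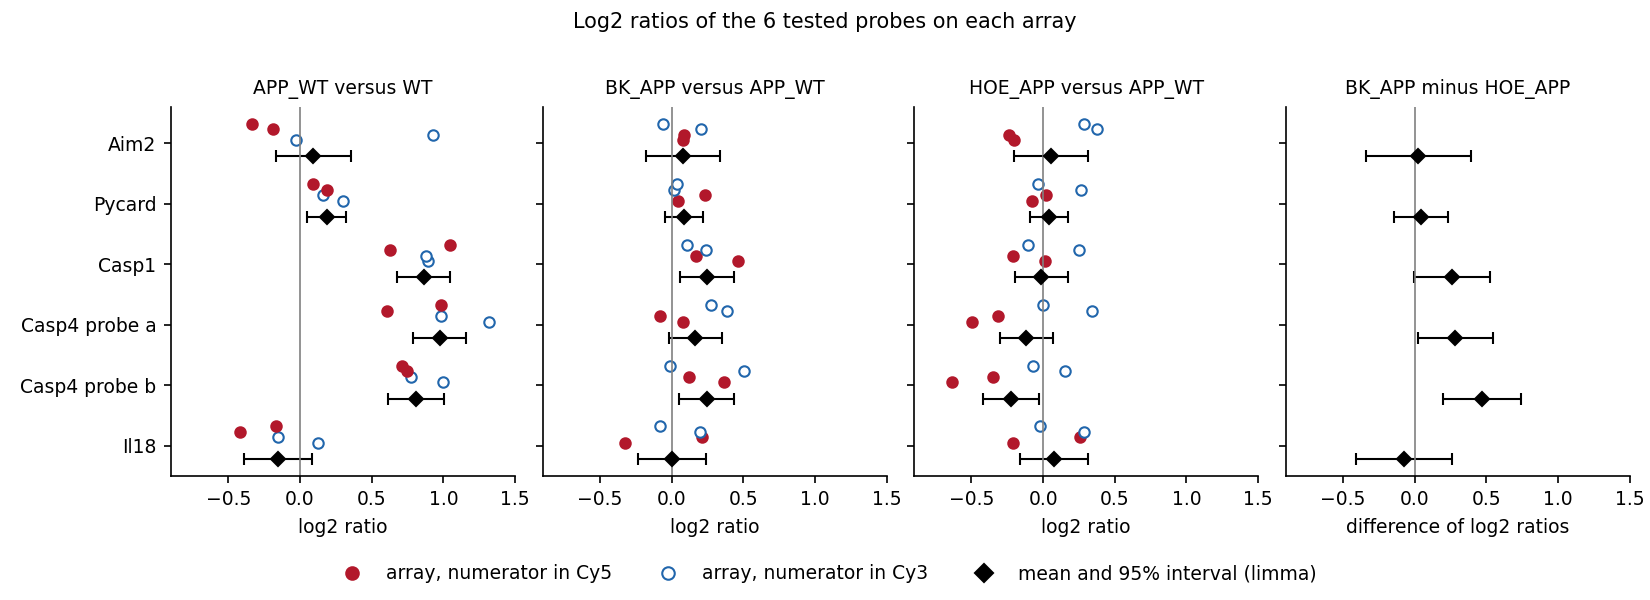
Log2 ratios of the 6 tested probes are shown by array (circles, filled red where the numerator was labeled with Cy5 and open blue where it was labeled with Cy3), with the mean and its 95% interval from limma (diamonds), for the 3 comparisons and for the difference of the treatments. In APP_WT versus WT all 12 circles of Casp1 and Casp4 lie between 0.61 and 1.32.

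Casp1 and Casp4 are neighbors on chromosome 9 in the RefSeq annotation (GRCm38.p6), with no other protein-coding gene between them, and Casp12 follows Casp4. Casp12 had 1 probe, which was too dim to be tested. The promoter windows of both genes, from 250 bases before to 50 bases after the annotated start, are printed because these 2 genes moved together in APP_WT. They are given on the plus strand, at chr9:5298267-5298566 for Casp1 and chr9:5308599-5308898 for the first of 2 annotated Casp4 starts, which lie 11 bases apart. Capitals mark matches to GGNNTTTCC, a simplified NF-kB-type motif, searched on both strands.
Casp1: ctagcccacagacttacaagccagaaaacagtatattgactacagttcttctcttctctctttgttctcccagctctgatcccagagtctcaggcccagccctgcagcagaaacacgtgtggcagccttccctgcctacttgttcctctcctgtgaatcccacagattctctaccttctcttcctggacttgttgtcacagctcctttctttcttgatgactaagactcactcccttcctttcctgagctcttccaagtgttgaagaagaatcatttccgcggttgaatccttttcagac
Casp4: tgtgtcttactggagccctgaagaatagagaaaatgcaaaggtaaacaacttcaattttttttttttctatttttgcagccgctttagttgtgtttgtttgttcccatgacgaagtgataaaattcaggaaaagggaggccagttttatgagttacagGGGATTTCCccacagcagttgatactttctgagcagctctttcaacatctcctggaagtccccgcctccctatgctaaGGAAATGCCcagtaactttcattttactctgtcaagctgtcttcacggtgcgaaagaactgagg
The Casp4 window held 2 such matches, GGGATTTCC on the plus strand 92 bases before the start and GGCATTTCC on the minus strand from 14 bases before it, and the Casp1 window held none. NF-kB-type matches were present in 5.82% of all 32851 RefSeq promoter windows of this length. Among 13 windows of 9 member genes (Gsdmd had no entry), 6 windows of 3 genes (Nlrp3, Casp4 and Il1rn) held one, and windows of Casp4 and of Il1rn overlap each other. Matches to the PU.1-type motif GAGGAAGT were in the windows of Aim2 and Pycard (3.20% of all windows), and the IRF-type motif GAAANNGAA was in no member window (8.56% of all windows). These are matches of letters, not measured sites.

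Pycard encodes the adaptor ASC. Its log2 ratios in APP_WT versus WT were 0.30, 0.16, 0.19 and 0.09, above 0 on 4 of 4 arrays, with a mean of 0.19 ± 0.09 (SD, n = 4) and an adjusted p of 0.0567. This missed the threshold, and the replicate number as a block, which the arrays' deviations supported as a pairing, gave an adjusted p of 0.0274 for the same mean. Within each array the channels stayed close, at 7.67, 7.58, 7.57 and 8.97 in APP_WT against 7.37, 7.42, 7.38 and 8.88 in WT.

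Il18, a cytokine that caspase-1 matures, did not rise with the caspases. It gave log2 ratios of 0.12, −0.15, −0.42 and −0.16, with a mean of −0.15 ± 0.22 (SD, n = 4) and an adjusted p of 0.368. The 95% interval ran from −0.39 to 0.08. With the replicate block the adjusted p was 0.0311 for the same mean, so that 5 of 6 member probes were called in that fit, 4 higher and Il18 lower, while all tested probes called rose from 5444 to 8261.

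**Figure D3:**
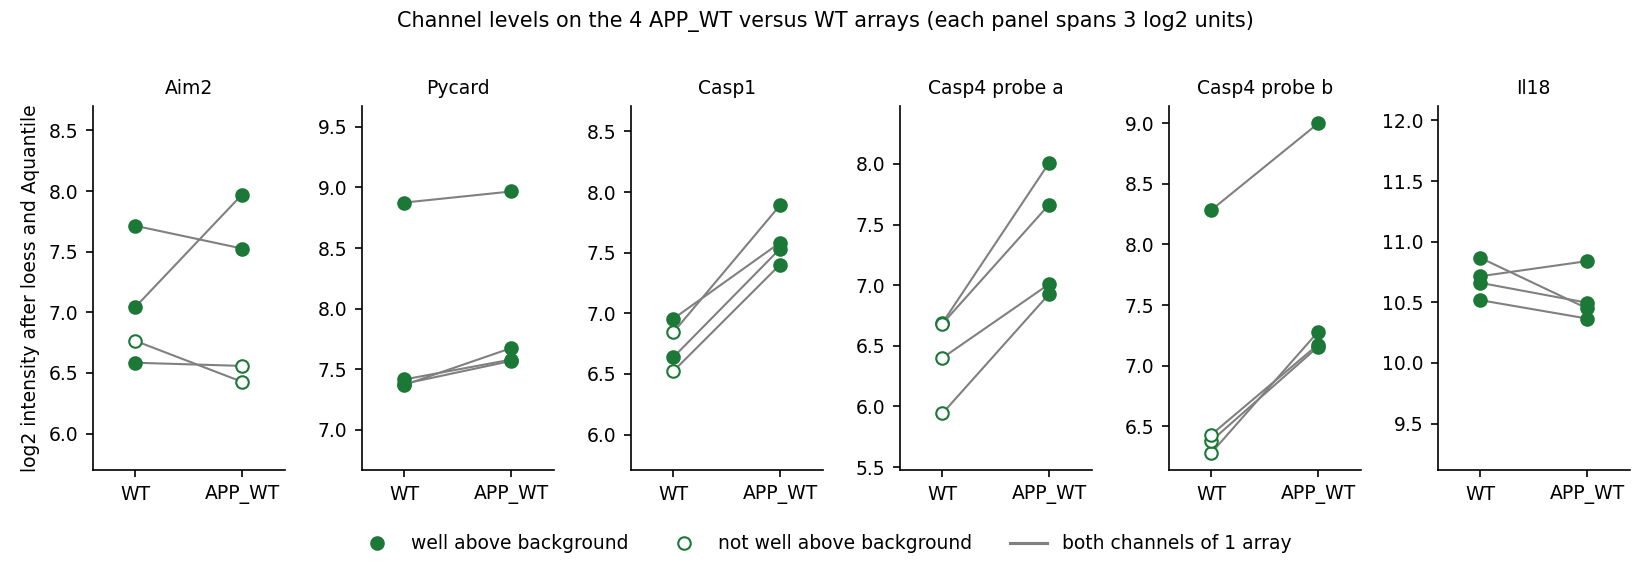
Normalized log2 intensities (after loess and Aquantile scaling) of the 6 tested probes are shown in the WT and APP_WT channels of the 4 arrays, with both channels of an array joined by a line and open circles where the probe was not well above background. Casp1 and Casp4 rise on every array from WT levels that were mostly not well above background, while Il18 spans 10.37 to 10.87 over both groups.

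Aim2, the sensor of cytosolic DNA, was uneven between arrays. Its log2 ratios were −0.03, 0.93, −0.19 and −0.34, and its mean was 0.09 ± 0.57 (SD, n = 4), with an adjusted p of 0.633. Only array 2 was high. Without array 2 the estimate was −0.14, and without array 1, when array 2 alone carried its dye orientation, it was 0.33 with an adjusted p of 0.00731, so that single arrays set both the sign and the call. Aim2 was well above background in 2 of 4 APP_WT and 3 of 4 WT channels of this comparison.

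Nlrp3, the sensor that responds to potassium efflux and extracellular ATP, was seen by 2 dim probes. Probe a gave log2 ratios of 0.03, 0.04, 0.05 and −0.01 and was well above background in 2 of 4 channels of each condition. Probe b gave −0.07, −0.05 and −0.06 on arrays 2 to 4 and 2.41 on array 1, where the APP_WT channel had an intensity of 9.11 against 6.31 to 6.47 on the others. The other Nlrp3 probe did not share that value, being at 0.03 on array 1. No difference of Nlrp3 was measurable from these probes.

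Gsdmd, the pore protein that both caspases cleave, was read by 10 spots on each array. The mean log2 ratios over its spots were 0.13, 0.13, 0.14 and 0.31, and the spots of 1 array spread with an SD of 0.11 to 0.15. It was well above background in 1 of 4 APP_WT and 0 of 4 WT channels and was not tested. Il1b, also with 10 spots, gave ratios of 0.10, 0.17, 0.23 and 0.41, all above 0, but neither condition was well above background and no fold is given. Il1a (0.24, 0.01, 0.11 and 0.00) and Il1rn (−0.19, −0.06, −0.16 and −0.37) were below that limit in both conditions as well.

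Genes of the same pathways outside the 10 members were described from 4 lists with 63 genes, of which 61 had a probe and 43 were tested. In APP_WT versus WT, 14 of the 43 were called higher and 2 lower, where 11.6% of all tested probes were called higher and 18.5% in either direction. Their median log2 fold change was 0.07, against 0.005 over all tested probes. Some of the 14, among them Gbp5 and Ifi204, passed the filter on dim probes only through transgenic channels. The count is therefore not independent of the direction. Without the filter 18 of 61 genes were called in either direction, against 4260 of all 55674 probes. Among inflammasome sensors and regulators 6 of 15 tested genes rose and 1, Panx1, fell by 0.26. The largest rises were those of Gbp5 (2.10 ± 0.21, SD, n = 4) and Gbp2 (2.05 ± 0.26), interferon-induced guanylate-binding proteins that act upstream of caspase-11 on bacteria. Ifi204, a DNA sensor of the AIM2 family, rose by 0.96 ± 0.21, or 1.94-fold. None of its WT channels was well above background, and for Gbp5 1 of 4 was. Both sizes therefore depend on the background correction. P2rx7, the ATP-gated channel upstream of NLRP3, rose by 0.93 ± 0.19. Adjusted p-values of these 4 genes lay between 4.47e-07 and 0.000395. The median of this list was 0.07.

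Of 4 other caspases and pore proteins tested, Ninj1, whose protein ruptures the membrane of dying cells, rose by 0.23 ± 0.19 (SD, n = 4), and no other was called. Among 7 other IL-1 family ligands and receptors tested, Il1r1, the signaling IL-1 receptor, rose by 0.59 ± 0.29 (adjusted p = 0.000435), and no other was called. Among 17 genes of IL-1 receptor signaling, 6 rose and 1, Tab3, fell by 0.22, with a list median of 0.02. Over all tested probes 11.6% were called higher and 18.5% in either direction. Nfkbia, the NF-kB inhibitor that NF-kB itself induces, rose by 1.37 ± 0.12 (adjusted p = 1.23e-06). Rela, Myd88 and Nfkb1 rose by 0.38 ± 0.24, 0.34 ± 0.10 and 0.31 ± 0.18. When each comparison was fitted alone without a dye term, 7 of the 43 genes were called in place of 16.

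**Figure D4:**
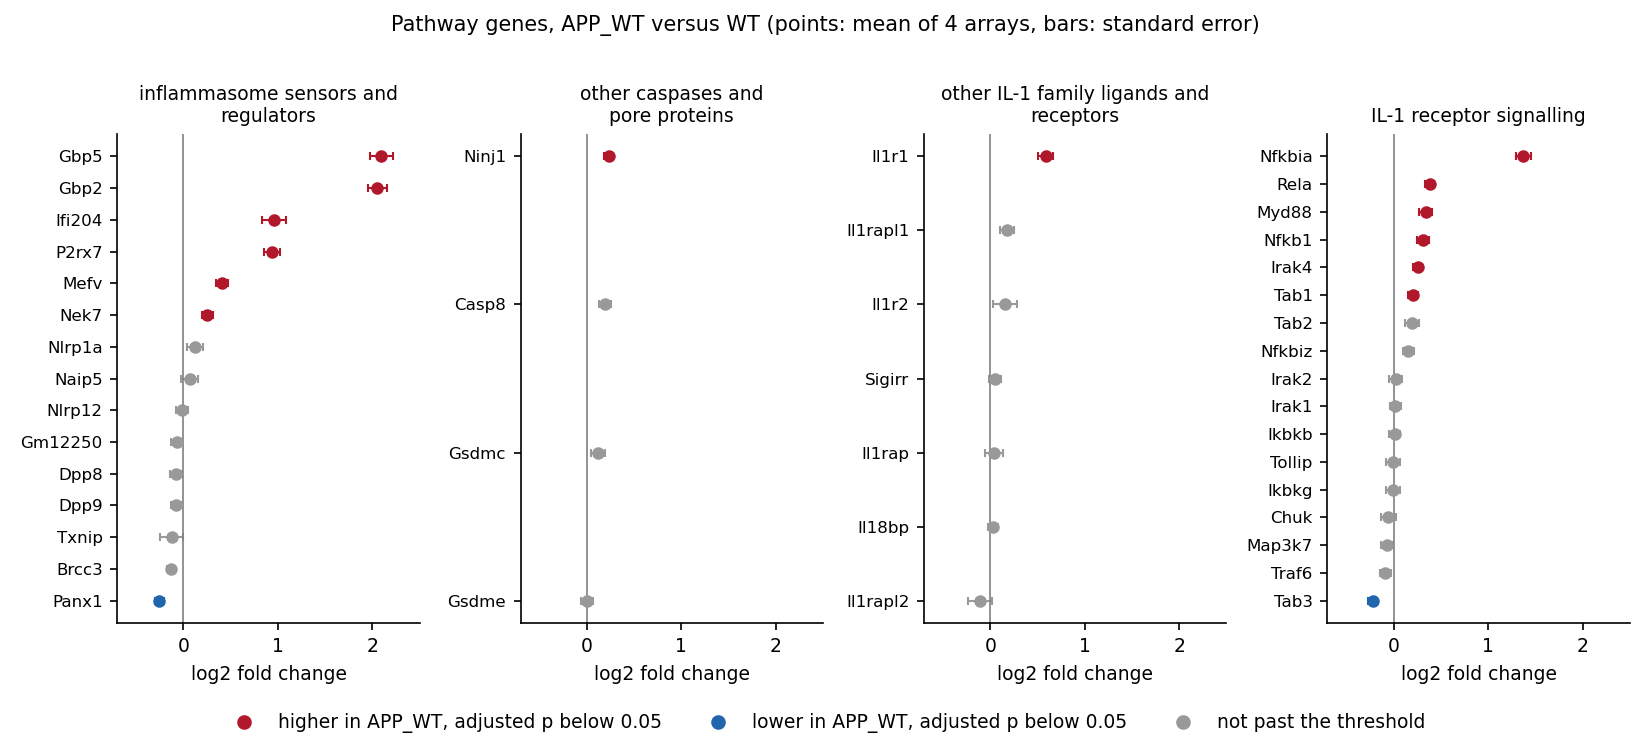
Log2 fold changes of the 43 tested pathway genes in APP_WT versus WT are shown by list, as the mean of 4 arrays with its standard error, in red where higher and in blue where lower at an adjusted p below 0.05. Gbp5, Gbp2 and Nfkbia lie farthest to the right, and most other genes lie between −0.26 and 0.59.

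Microglia markers moved with these differences. Of the 14 markers, 11 were tested and 10 were called higher, where 11.6% of all tested probes were. By its best-detected probe each of the 11 was well above background in 15 to 24 of the 24 channels. The filter on dim probes can be passed through transgenic channels alone, so that this count may not be independent of the direction. The median over the 11 was 1.16 on the log2 scale. Their mean normalized log2 intensity was 9.06 to 9.21 in the APP_WT channels and 7.75 to 7.91 in the WT channels. P2ry12 and Spi1 were well above background in 1 of 24 channels each. Astrocyte markers were also higher, with 5 of 6 called against the same 11.6% and a median of 0.37. Of 5 progenitor markers 1 was called higher and 2 lower, and of 7 neuron markers 2 higher and 2 lower. Of 6 oligodendrocyte lineage markers 1 was called lower. Of all tested probes 18.5% were called in either direction. The part of any of these markers in the differences of Casp1 and Casp4 was not tested.

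The comparison of BK_APP with APP_WT asks how transgenic neurospheres differ with added bradykinin. By the adjusted limma test 0 of 6 member probes were called, as were 0% of all tested probes. At an unadjusted limma p below 0.05, Casp1 and Casp4 probe b passed, 2 of 6 against 4.46% of all tested probes. SAM and rank products, the unadjusted pair of tests that the study's methods name, called the same 2 probes, against 2.42% of all tested probes.

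Casp1 gave log2 ratios of 0.47, 0.17, 0.24 and 0.11 with BK, above 0 on 4 of 4 arrays, with a mean of 0.25 ± 0.16 (SD, n = 4) and an adjusted p of 0.967. Casp4 probe b gave 0.36, 0.12, 0.50 and −0.01, with a mean of 0.24 ± 0.23 and the same adjusted p. Casp4 probe a gave 0.08, −0.08, 0.39 and 0.27, with a mean of 0.17 ± 0.21. Both Casp4 probes were thus above 0 on 3 of 4 arrays, but array 2 was below 0 for probe a and array 4 for probe b. Single arrays moved the fitted value of probe b, which was 0.12 without array 3 and 0.37 without array 4. With an array left out, the fit weights both dye orientations equally, so that its value is not the plain mean of the remaining arrays. The 95% intervals were 0.06 to 0.43 for Casp1, −0.02 to 0.35 for Casp4 probe a and 0.05 to 0.44 for probe b.

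Other members lay nearer to 0 with BK. Pycard read 0.04, 0.24, 0.02 and 0.04, where only array 2 stood off, and Il18 read −0.32, 0.21, 0.20 and −0.08, with a mean of 0.00. Aim2 read 0.08, 0.09, 0.21 and −0.06 and was not well above background in any of the 8 channels of this comparison. The untested probes had means between −0.14 (Nlrp3 probe a) and 0.08 (Il1b), without detection of Il1a, Il1b or Il1rn in BK_APP.

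In HOE_APP versus APP_WT, where HOE-140 was added, 0 of 6 member probes passed the adjusted limma test, and 0% of all tested probes did. At an unadjusted limma p below 0.05 Casp4 probe b alone passed, 1 of 6 against 5.02% of all tested probes. SAM and rank products called 0 of 6 member probes and 2.97% of all tested probes. Both directions of HOE_APP give these counts, since turning the sign changes no p-value of the comparison itself.

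Casp4 probe b read −0.64, −0.35, 0.15 and −0.07 with HOE-140, with a mean of −0.23 ± 0.34 (SD, n = 4) and an adjusted p of 0.924. Casp4 probe a read −0.50, −0.31, 0.34 and 0.00, with a mean of −0.12 ± 0.37. Its fitted value, with both dye orientations weighted equally, was −0.03 without array 4, −0.07 without array 1 and −0.20 without array 3. The fitted value of probe b was −0.15 without array 1. For both probes the 2 low arrays were those with HOE_APP in Cy5, and the other two, with HOE_APP in Cy3, lay near or above 0. Casp1 stayed around 0, at 0.01, −0.21, 0.25 and −0.10, with a mean of −0.01 ± 0.20 and a 95% interval from −0.20 to 0.17.

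Aim2 split by dye as well, at −0.20 and −0.24 with HOE_APP in Cy5 and 0.38 and 0.29 with it in Cy3. Pycard (−0.08, 0.02, 0.26 and −0.03) and Il18 (−0.21, 0.25, 0.28 and −0.02) had means of 0.04 and 0.08. The untested probes had means between −0.08 (Nlrp3 probe a) and 0.03 (Il1rn).

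The agonist and the antagonist were compared at the same dose and days by the difference of the 2 treatment effects, a single pair. By the adjusted limma test 0 of 6 member probes and 0% of all tested probes differed. Unadjusted, Casp4 by both probes passed, 2 of 6 against 2.49% of all tested probes. Between arrays of the same number, which share dye orientation, the BK_APP ratio of Casp4 probe b exceeded that of HOE_APP by 1.00, 0.47, 0.35 and 0.06, and that of probe a by 0.58, 0.24, 0.05 and 0.28. In the direction used for HOE_APP all 8 differences were thus above 0, between 0.05 and 1.00. The fit, by contrast, took the arrays of both treatments as independent, without pairing by array number. The fitted difference was 0.47 (95% interval 0.19 to 0.74) for probe b and 0.28 (0.02 to 0.55) for probe a, both with an adjusted p of 1.00. These values rest on that direction, which is likely only. With the sign of HOE_APP turned, the fitted difference was 0.02 (−0.26 to 0.29) for probe b and 0.05 (−0.21 to 0.31) for probe a. The 4 numbered pairs then gave −0.27, −0.23, 0.66 and −0.08 for probe b and −0.42, −0.39, 0.73 and 0.27 for probe a, on both sides of 0. In that direction 0 of 6 member probes passed unadjusted, against 7.91% of all tested probes, and 0% of all tested probes passed adjusted. In the direction used here, Casp1 differed by 0.45, 0.38, −0.01 and 0.21, a mean of 0.26 with a 95% interval from −0.01 to 0.52 (turned, 0.23 and −0.03 to 0.50). For Pycard, Aim2 and Il18 the intervals were −0.15 to 0.23, −0.34 to 0.39 and −0.41 to 0.26, which leave differences of such sizes possible in either direction. APP_WT neurospheres stand in all 3 comparisons, and the labels do not say whether their RNA was the same. The values of the comparisons are therefore set side by side here without a test of likeness.

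Pathway genes gave 0 calls of 43 in either treatment by the adjusted limma test, and unadjusted 2 passed with BK, both higher, and 4 with HOE-140, all lower in the direction used here, against 4.46% and 5.02% of all tested probes. Unadjusted SAM and rank products called 3 with BK, Gbp5 (0.29), Gbp2 (0.21) and Nfkbia (0.26), all higher, and 3 with HOE-140, Gbp5 (−0.36), Gbp2 (−0.23) and Naip5 (−0.18), all lower, against 2.42% and 2.97% of all tested probes. These genes were picked out by that call after their values were seen. Microglia markers had mean log2 ratios of 0.02 to 0.20 on the BK arrays and −0.17 to −0.01 on the HOE-140 arrays. In each, 0 of 11 were called by the adjusted test (unadjusted, 4 higher with BK and 1 lower with HOE-140). Astrocyte markers lay at −0.10 to −0.02 with BK and −0.17 to −0.04 with HOE-140. Neuron markers lay at −0.16 to −0.04 with BK and −0.06 to 0.09 with HOE-140. Progenitor and oligodendrocyte lineage markers lay on both sides of 0 in each. The part of any of these in the Casp1 and Casp4 values was not tested.

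Over all 12 arrays, the genes outside the members whose log2 ratios lay closest to those of a member, by root mean square distance, were Csf1 (0.13) and Ncf4 (0.14) for Casp1. They were Prrx2 (0.16) and Maats1 (0.17) for Casp4 probe a, and Ifi44 (0.16) and Slc15a3 (0.20) for probe b, so that the 2 probes of one gene had no nearest gene in common. Abhd11 (0.07) and Csf1r (0.08) were nearest to Pycard, Exd2 (0.07) and Hnrnpa2b1 (0.09) to Il18, and Npm3 (0.13) and Pcyox1l (0.15) to Aim2.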

How the data were processed

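In all, 12 2-color Agilent SurePrint G3 mouse arrays were analyzed, 4 for each comparison. The authors deposited the scanner output, with median spot and background intensity of both dyes, not normalized, processed intensities and their log10 ratio, and flags (Feature Extraction 11.0.1.1 per the file headers, another version than in the methods). The deposited table of log2 ratios followed the scanner ratios (r at least 0.9986, slope 1.00, medians −0.155 to 0.036) and was an alternative. Median signals were corrected by normexp (offset 50) and normalized by loess in limma 3.58.1 (R 4.3.3), with control and outlier spots at weight 0, and spots of a probe were averaged. Probes well above background in 1 condition on at least 3 of 4 arrays, with a value in each dye orientation, were tested (29353). The offset shrinks log2 ratios of dim probes, and the number of arrays limits the precision. One limma model over the 12 arrays held a mean and a dye coefficient per comparison, and p-values were two-sided, adjusted by Benjamini-Hochberg over all tested probes at 0.05. Each log2 fold change is a mean over 4 arrays, and with an array left out it is the mean of both dye orientations.

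The members and lists were chosen with earlier results of these data known. Named genes are all members, the called genes of each pathway list (at most the 4 largest per comparison) and the 2 nearest genes of each tested member probe. Panx1, Tab3, Casp12, Naip5, P2ry12, Spi1, Ccr2 and S100a8 stand outside this rule and were chosen after their values were seen. A gene of a list stood by its brightest tested probe. Il36rn was not in the gene table, and Nlrp6, Cd68 and Ly6c2 had no probe matched by accession. The results of 2 list genes are not reported here, and the counts leave them out. Arrays of the same number, with the sign of the APP_WT sample, had deviations that correlated in all pairs (r 0.20 to 0.51 with dye removed), and the number was taken as a pairing from the data, since the labels give only the number. The APP_WT versus WT arrays lay on 1 slide and the 8 treatment arrays on another. Alternatives were another offset, processed signals, median centering, both filters, no dye term, the deposited table, the replicate block, SAM with rank products (100 permutations, 16 sign flips) and leaving out each array. The model was checked on simulated data. Promoters are from RefSeq (GRCm38.p6), and probe sequences were not used here.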

Additional observations from a re-analysis of the deposited data

Results flagged for a closer look

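Among 36 sets of 4 arrays (12 probes in 3 comparisons), 3 had 1 array far from the other three by Dixon's criterion, and chance alone gives about 1 in 20. Nlrp3 probe b stood at 2.41 on array 1 of APP_WT versus WT, with the others between −0.07 and −0.05. Gsdmd stood at 0.31 on array 4 of the same comparison, with the others between 0.13 and 0.14, and it was the 1 array on which its APP_WT channel was well above background. Pycard stood at 0.24 on array 2 of BK_APP versus APP_WT, with the others between 0.02 and 0.04.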

How the results depend on the processing

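Casp1 and both Casp4 probes kept their call and direction in APP_WT versus WT under all 12 alternatives, with log2 fold changes from 0.76 to 1.78, 0.88 to 2.09 and 0.75 to 1.72 and adjusted p-values up to 0.00113, 0.0023 and 0.0149. Leaving out each array in turn gave 3 to 4 member probes and 13 to 18 pathway genes called there, and 0 in both treatment comparisons. The replicate block gave 5 member probes and changed no call with BK, HOE-140 or between them. Without a dye term 7 pathway genes were called. SAM and rank products called 2 member probes and 3 pathway genes with BK, and 3 pathway genes with HOE-140. Pycard also passed among probes well above background in both channels on all 4 arrays of at least 1 comparison (limma, adjusted p 0.0476). Casp1 and Casp4 met that filter only through the treatment arrays, so that it does not test their dim WT channels. Without a filter, 1 dim probe, that of Il1b (0.23, adjusted p 0.022), was called beside the same 3. The sign turned for Aim2 in APP_WT versus WT with processed signals (−0.16), and for Casp1 with HOE-140 under median centering (0.019). It also turned within the leave-one-out values of Aim2 in APP_WT versus WT (−0.14 to 0.33), of Il18 with BK (−0.13 to 0.14), and with HOE-140 of Casp1 (−0.10 to 0.076), Pycard (−0.032 to 0.12) and Il18 (−0.041 to 0.19). Of the values with a turned sign none was called, and the cause was not tested. Low signal over background limits Aim2, Nlrp3, Gsdmd, Il1a, Il1b and Il1rn.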

Other observations

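Some brightness differences were shared by both channels of an array, and their effect on the ratios was not tested. Pycard had normalized log2 intensities of 8.69 to 8.97 in both channels of array 4 in all 3 comparisons, and 6.99 to 8.21 on the other arrays. Casp4 probe b had 8.28 and 9.0 on array 4 of APP_WT versus WT, and 6.28 to 7.76 in every other channel, while probe a of the same gene read 6.68 and 7.66 on that array.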
